A study of Mus musculus with 32 samples.

Results

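The genes described here are Gab1, Ampd3, Dcn, Pde4d and Rb1, chosen by name because imprinting has been reported for them in the placenta or in other tissues, or has been disputed. All 5 were listed in all 3 tables of allele-specific reads, among 18508 gene symbols in all. The question was whether a parental bias is present in brain, or whether a difference between the strains stands in its place.

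In an imprinted gene the copies inherited from the mother and from the father are transcribed unequally, and marks such as DNA methylation set in the germ line tell them apart. Many such genes are imprinted in a single tissue, and the placenta holds an unusually large number of them. Gab1 has been described as paternally expressed in extraembryonic tissue, Ampd3 and Dcn as maternally expressed in the placenta, and the human RB1 gene is known to be imprinted. A reciprocal cross separates the parent from the strain. Alone, a maternal bias keeps the mother's allele ahead in both crosses. A strain bias alone keeps the same strain's allele ahead, so that it is maternal in the one cross and paternal in the other. Where both are present, the larger sets which allele is ahead.

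Polyadenylated RNA came from brains of F1 mice of CAST/EiJ (CAST) and C57BL/6J (B6). Offspring of CAST mothers and B6 fathers are called F1i, and those of B6 mothers and CAST fathers F1r. Whole brain at embryonic day 15 (E15) gave 1 pool per cross, each of 4 to 5 individuals, and adults of 5 weeks gave the preoptic area (POA) and the medial prefrontal cortex (PFC), each as 1 male and 1 female pool for either cross, of 8 to 10 individuals. These 10 pools were made from 24 libraries, and 4 libraries of embryonic brain of the inbred parents were used as well. The files hold a single count per pool, with technical replicates already summed, and so the spread between pools holds both biological and technical differences. Whether the POA and PFC were dissected from the same animals is not stated in the labels. The embryo gave whole brain and the adults dissected regions. Stage and tissue therefore cannot be told apart in any comparison of embryo and adults.

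The F1 pools held 3509414 to 11610283 autosomal reads over bases that differ between the strains (informative reads), and the median gene was 47.3% to 49.4% CAST in them. Neuron markers were listed in every region. Of 5 markers of the preoptic area and hypothalamus, 4 were listed in the POA and none in the PFC, whereas 4 of 5 cortical markers were listed in the PFC and 2 in the POA. Of 5 placental trophoblast markers only Gcm1 was listed, in the embryo, at 0.698 and 1.01 CPM (informative reads scaled to the pool's total). A gene without a usable SNP is not listed, so a missing marker does not show that its cells were absent. The neuron marker Rbfox3, the oligodendrocyte marker Mog and the blood marker Hba-a1 were listed in no region.

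To show what was counted, the reference sequence around the coding SNP with most reads is given for each gene, 29 bases on the strand of the gene, from the mm9 genome. The capital is the base that differs, at position 15 from the 5′ end. The B6 base is printed, and the substitution names the CAST base after it.
Gab1 (chr8:83308729-83308757, minus strand, T15G): cccaactcgccaccTcgacaacattccgg
Pde4d (chr13:110726882-110726910, plus strand, T15C): taggaactagaagaTgtgaacaagtgggg
Ampd3 (chr7:117954278-117954306, plus strand, A15G): tacaaggaaggaccAgagggcaatgacat
Dcn (chr10:96957662-96957690, plus strand, C15T): ccacccgacacaacCttgctagacctgca
Rb1 (chr14:73673474-73673502, minus strand, G15A): ttagatgcaagactGtttttggatcatga
Over all 10 pools the CAST share was 45.9% of 573 reads at the Gab1 base (95% Clopper-Pearson interval 41.8% to 50.1%), 70.5% of 678 reads at the Pde4d base (66.9% to 73.9%) and 54.7% of 245 reads at the Ampd3 base (48.2% to 61.0%). It was 37.4% of 372 reads at the Dcn base (32.4% to 42.5%) and 43.8% of 313 reads at the Rb1 base (38.2% to 49.5%). The Pde4d base leaned to CAST and the Dcn and Rb1 bases to B6. Exact (Clopper-Pearson) intervals on shares cover counting error only. They can be too narrow even for that, because reads without molecular identifiers are not independent molecules. In shares summed over a gene, a read that spans nearby SNPs is also counted at each. Intervals on fitted shares, given below, come from the edgeR fit and hold the spread between pools.

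No parental bias was called for any of the 5 genes, in the embryo, in either adult region or over all adult pools. A gene was called when its Benjamini-Hochberg adjusted p over all autosomal genes was under 0.05 and its maternal share, the percent of informative reads from the mother's allele, lay above 50% in both crosses or below it in both. This rule cannot call a parental effect that is smaller than a strain effect in the same gene. In the embryo 4.86% of all genes tested were called by Fisher's exact test, in the POA 1.16%, in the PFC 0.444% and over all adult pools 0.709% by edgeR's quasi-likelihood test. At an unadjusted p under 0.05, 0 of 5 members passed in any adult comparison by edgeR or by DESeq2, and in the embryo Dcn and Pde4d passed Fisher's test with the mother's allele ahead in a single cross only. Over the 8 adult pools the fitted maternal share was 49.0% for Gab1 (95% interval 46.1% to 51.9%), 50.6% for Pde4d (47.5% to 53.6%), 49.7% for Ampd3 (46.9% to 52.5%), 48.3% for Dcn (42.4% to 54.2%) and 49.5% for Rb1 (45.4% to 53.7%). The widest interval belonged to Dcn, the gene with the fewest adult reads.

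The same fits called the imprinted controls. In the embryo 9 of 9 controls were called, and 8 of 8 in each adult comparison. In the embryo Meg3, listed under its older name Gtl2, was 97.2% ± 2.94 maternal (SD, n = 2), and in adults Peg3 was 0.761% ± 0.897 maternal (SD, n = 8).

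**Figure D1:**
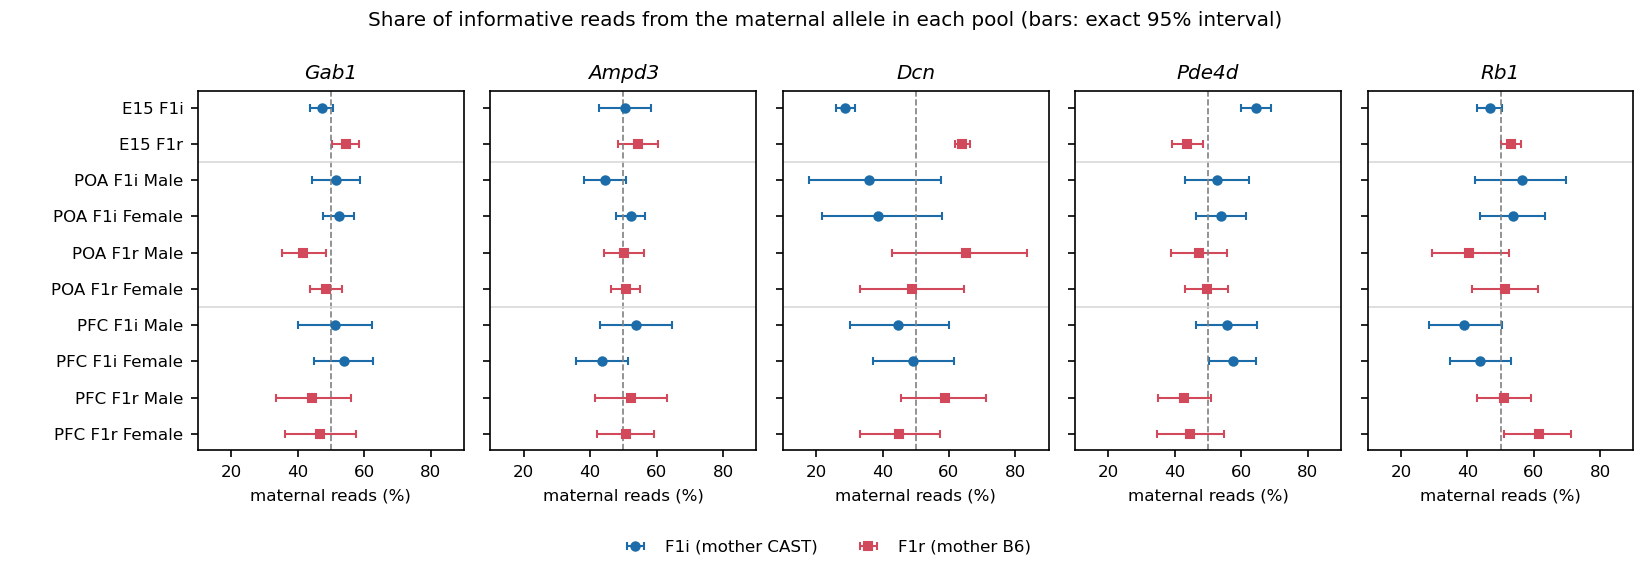
Maternal reads as a percent of informative reads (horizontal axis) in each of the 10 pools (vertical axis), with a panel per gene and exact 95% intervals as bars. Every gene scatters about 50%, and for Dcn in the embryo the pools lie far apart on either side of it, at 28.8% and 64.0%.

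Gab1 encodes a docking adaptor that links receptor tyrosine kinases to SHP2 and PI3 kinase. It lies at chr8:83288333-83404378 on the minus strand (mm9), and 12 to 18 SNPs, most of them in its coding sequence or 3′ UTR, were read in each region. Its maternal share in the embryo was 47.2% in F1i and 54.4% in F1r (mean 50.8% ± 5.10 SD, n = 2). In the POA it was 51.5% and 41.7% in the F1i and F1r male pools and 52.3% and 48.5% in the female pools. In the PFC it was 51.2%, 44.4%, 53.8% and 46.7% in the same order. In each adult region and sex the F1i pool was thus above its F1r counterpart, and the CAST share exceeded 50% in 8 of 8 adult pools, with a mean of 53.4% ± 2.45 (SD, n = 8). In the embryo the CAST share was below 50% in both pools, at 47.2% and 45.6%. Neither lean passed the test (edgeR, log2 CAST to B6 ratio 0.19 ± 0.088 SE with adjusted p = 0.079 in adults, -0.21 ± 0.114 SE with adjusted p = 0.27 in the embryo). The difference between the stages did not pass either, at -0.40 ± 0.140 SE on the log2 scale (adjusted p = 0.069).

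Pde4d encodes a phosphodiesterase that breaks down cyclic AMP, with many isoforms. It spans chr13:109240142-110743669 on the plus strand, and 8 to 10 SNPs were read in each region. In the embryo its maternal share was 64.4% in F1i and 43.7% in F1r, so that the CAST allele led in both crosses, at 64.4% and 56.3%. The mean CAST share was 60.3% ± 5.72 (SD, n = 2) and the strain bias passed the test (edgeR, log2 0.61 ± 0.157 SE, adjusted p = 0.049). In the POA the maternal share was 52.7% and 47.2% in the F1i and F1r male pools and 53.8% and 49.6% in the female pools. In the PFC it was 55.7% and 42.8% in male pools and 57.4% and 44.6% in female pools. CAST was above 50% in 10 of 10 pools, at 52.4% ± 1.44 in the POA and 56.5% ± 1.01 in the PFC (SD, n = 4 each). The strain bias passed in the PFC (log2 0.38 ± 0.133 SE, adjusted p = 0.029) and over all adult pools (0.26 ± 0.085 SE, adjusted p = 0.017), but not in the POA (0.14 ± 0.121 SE, adjusted p = 0.43). The PFC call was lost with DESeq2 (adjusted p = 0.36) and without any 1 of the 4 PFC pools (edgeR, adjusted p 0.067 to 0.16), and the adult call with DESeq2 (adjusted p = 0.17) and without the male F1r pool of the PFC (edgeR, 0.24, adjusted p = 0.050). The embryonic call was lost with DESeq2 (adjusted p = 0.29) and on the SNPs listed in all 3 tables (edgeR, 0.71, adjusted p = 0.070).

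Ampd3 encodes AMP deaminase, which turns AMP into IMP. It lies at chr7:117911720-117955919 on the plus strand, and 14 to 17 SNPs were read in each region. Its maternal share in the embryo was 50.6% in F1i and 54.4% in F1r (52.5% ± 2.68 SD, n = 2). In the POA it was 44.4% and 50.2% in the F1i and F1r male pools and 52.2% and 50.7% in the female pools. In the PFC it was 53.9%, 52.3%, 43.5% and 50.7% in the same order. The pools of both crosses overlapped, and the exact interval of each of the 10 pools held 50%. The CAST share was 48.8% ± 3.55 over the adult pools (SD, n = 8), with no strain bias called in any region (adjusted p 0.50 over all adults).

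Dcn encodes decorin, a small leucine-rich proteoglycan that binds collagen and growth factors and is made by fibroblasts, meningeal cells among them. It lies at chr10:96942245-96980777 on the plus strand. In the embryo its maternal share was 28.8% in F1i (26.1% to 31.7%, 1042 reads) and 64.0% in F1r (61.8% to 66.3%, 1813 reads). The CAST allele was therefore the lower one in both crosses, at 28.8% and 36.0%, and the strain bias passed the test (edgeR, log2 -1.07 ± 0.134 SE, adjusted p = 0.0054). On the SNPs listed in all 3 tables it was -0.74 and no longer passed (adjusted p = 0.070). Fisher's exact test of the parental term also gave a small adjusted p of 0.0021 at a log2 maternal to paternal ratio of -0.24 ± 0.061 SE, with the crosses on opposite sides of 50%, and 10.2% of genes passed on the adjusted p alone. With the spread taken from all 10 pools the same term had an adjusted p of 0.48 by edgeR. Being smaller than the strain term, the parental term could not be called by the rule used here. Adult reads were few, 23 to 71 a pool. The maternal share was 36.0%, 65.2%, 38.7% and 48.8% in the F1i male, F1r male, F1i female and F1r female pools of the POA, and 44.7%, 58.7%, 49.3% and 45.1% in those of the PFC. The CAST share was 40.2% ± 7.51 in the POA and 47.5% ± 5.92 in the PFC (SD, n = 4 each), and no adult comparison passed (adjusted p = 0.155 over all adults). The embryo differed from the adults in strain bias by -0.76 ± 0.197 SE on the log2 scale (adjusted p = 0.014). That call was lost without the female F1r pool of the POA (-0.62, adjusted p = 0.071) and on the SNPs listed in all 3 tables (-0.45, adjusted p = 0.31).

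Rb1 encodes the retinoblastoma protein, which restrains E2F factors and entry into the cell cycle. It lies at chr14:73583480-73725629 on the minus strand, and Rcbtb2 and Lpar6 have exons inside it, whose reads cannot be told from Rb1's by strand. In the embryo its maternal share was 46.7% in F1i and 53.2% in F1r, so that the CAST share was nearly the same in both, at 46.7% and 46.8%. In the POA the maternal share was 56.4% and 40.5% in the F1i and F1r male pools and 53.7% and 51.4% in the female pools. In the PFC it was 39.0%, 51.0%, 43.8% and 61.5% in the same order. The CAST share was above 50% in 3 of 4 POA pools and below it in 4 of 4 PFC pools, with means of 54.5% ± 4.61 and 42.6% ± 4.90 (SD, n = 4 each). The lowest POA pool, at 48.6%, lay below the highest PFC pool, at 49.0%, so that the regions overlapped. The difference between the regions was 0.62 ± 0.238 SE on the log2 scale and did not pass the test (edgeR, adjusted p = 0.089), and the lean to B6 in the PFC did not pass either (-0.39 ± 0.159 SE, adjusted p = 0.059). Without the male F1r pool of the PFC, the pool at 49.0%, the PFC value was -0.58 with an adjusted p of 0.038.

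A strain bias was common among all genes. In the embryo 11.5% of genes were called and 2 of 5 members, Dcn with 7.67% of genes toward B6 and Pde4d with 3.84% toward CAST. In the POA 28.2% were called, a count that fell from 3251 to 1636 genes without the female F1i pool, to 1995 without the female F1r pool and to 2127 without the male F1i pool, and 0 of 5 members, with 0 of 5 at an unadjusted p under 0.05 by edgeR and by DESeq2. In the PFC 35.6% of genes and 1 of 5 members were called, and over all adult pools 42.1% of genes and 1 of 5 members. The member was Pde4d in both, toward CAST, as were 11.6% and 14.6% of all genes. In the adults the members were thus called no more often than all genes. Without the 1 deepest SNP of each gene, Dcn in the embryo was still called (-0.80 ± 0.136 SE, adjusted p = 0.037), whereas Pde4d was at -0.08 in the embryo, 0.17 in the PFC and 0.11 over all adults (adjusted p = 0.79, 0.44 and 0.38).

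**Figure D2:**
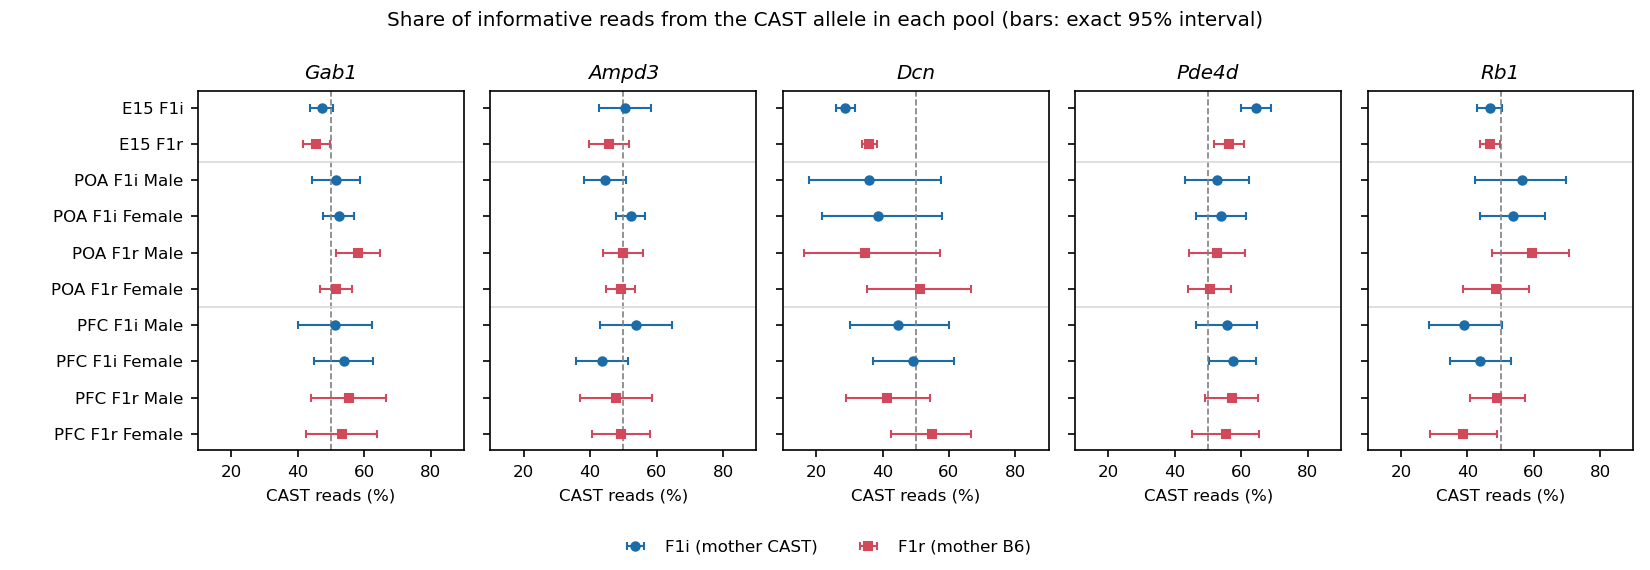
CAST reads as a percent of informative reads (horizontal axis) in each of the 10 pools (vertical axis), with a panel per gene and exact 95% intervals as bars. Pde4d lies above 50% in 10 of 10 pools, the embryonic Dcn pools lie at 28.8% and 36.0%, and the Rb1 pools of the POA and PFC sit on different sides of 50% in most cases.

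Differences in parental bias between stages, regions and sexes were tested directly. Between embryo and adults 0.378% of genes and 0 of 5 members were called, and between POA and PFC 0.319% and 0 of 5. Between female and male adult pools 0% of genes were called and 0 of 5 members, although 490 genes had an unadjusted p under 0.05 by edgeR (28 by DESeq2, which also called 0), and 21 were called without the female F1r pool of the PFC and 2 without the male F1i pool of the POA. In each of these 3 comparisons 0 of 5 members had an unadjusted p under 0.05 by either tool. The largest of the members' differences between sexes was that of Rb1, 0.36 ± 0.222 SE on the log2 scale (edgeR, adjusted p = 1), and its interval of -0.10 to 0.83 was wide. Strain bias differed between embryo and adults in 10.1% of genes and 1 of 5 members, Dcn, and between POA and PFC in 12% of genes and 0 of 5 members, of which Rb1 had an unadjusted p under 0.05 by edgeR and none had by DESeq2. The latter count fell from 1349 genes to 775 without the female F1i pool of the POA and to 870 without its female F1r pool.

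The SNPs within a gene were read separately, as a description of where the leans came from. In Pde4d the base printed above, at chr13:110726896 in the coding sequence, carried 394 of the 927 embryonic reads and was 76.1% CAST there (71.6% to 80.3%). The same base was 67.1% CAST in the PFC (149 reads) and 57.8% in the POA (135 reads). The next coding SNP with many embryonic reads, at 110728238, held 67 CAST reads of 134, and that at 110739732 was 40.4% of 109. Of 9 Pde4d SNPs with at least 20 embryonic reads, 2 had an interval above 50% CAST, the base printed above and that at 110741534 (87.5% of 24 reads). In the PFC 4 of 8 had one, among them the base printed above and again 110741534 (88.0% of 25 reads), and in the POA 0 of 8. In reads aligned to the genome, the exons of Pde4d were 52.1% CAST in the embryo (21 SNPs, 1928 reads, 49.9% to 54.4%), 48.9% in the POA (20 SNPs, 1535 reads, 46.4% to 51.5%) and 56.1% in the PFC (18 SNPs, 1384 reads, 53.5% to 58.8%). Of these 3 exonic shares, that of the PFC had an interval above 50%.

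Dcn showed the lean to B6 at most of its embryonic SNPs. Of 10 SNPs, 9 were below 50% CAST and for 7 the interval lay below it. The 5 coding SNPs ranged from 30.8% to 44.4%, and the base printed above was 39.0% CAST of 315 reads. In the 3′ UTR the SNPs at chr10:96980621 and 96980658 were lowest, at 23.6% of 457 reads and 18.0% of 605 reads, and the SNP at 96980540 was the only one above 50%, at 62.8% of 113 reads. The maternal shares at these SNPs, with both crosses summed, ran from 38.1% to 59.4%. The F1r pool held more Dcn reads than the F1i pool, so the strain lean enters these values. In the PFC the same 3′ UTR base at 96980658 was 38.2% CAST, but of 34 reads (22.2% to 56.4%).

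A single Rb1 SNP was low in every region. The 3′ UTR base at chr14:73596718 was 28.6% CAST in the embryo (28 reads), 7 of 35 reads in the POA and 10.3% in the PFC (39 reads, 2.9% to 24.2%). That base lies within the span of Rcbtb2, which was itself 41.0% CAST in the embryo and 39.9% in adults. Whether reads of Rcbtb2 had a part in it was not tested. Coding SNPs in the embryo ranged from 34.0% at 73679974 to 65.0% at 73688551, so that the gene's 46.8% was an average of unlike values. The Gab1 base printed above was 42.1% CAST in the embryo (401 reads, 37.3% to 47.1%) and 56.0% in the PFC (109 reads, 46.1% to 65.5%). In Ampd3 the 3′ UTR base at chr7:117955078 was low in both adult regions, at 33.0% of 112 reads in the POA and 27.5% of 69 reads in the PFC.

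**Figure D3:**
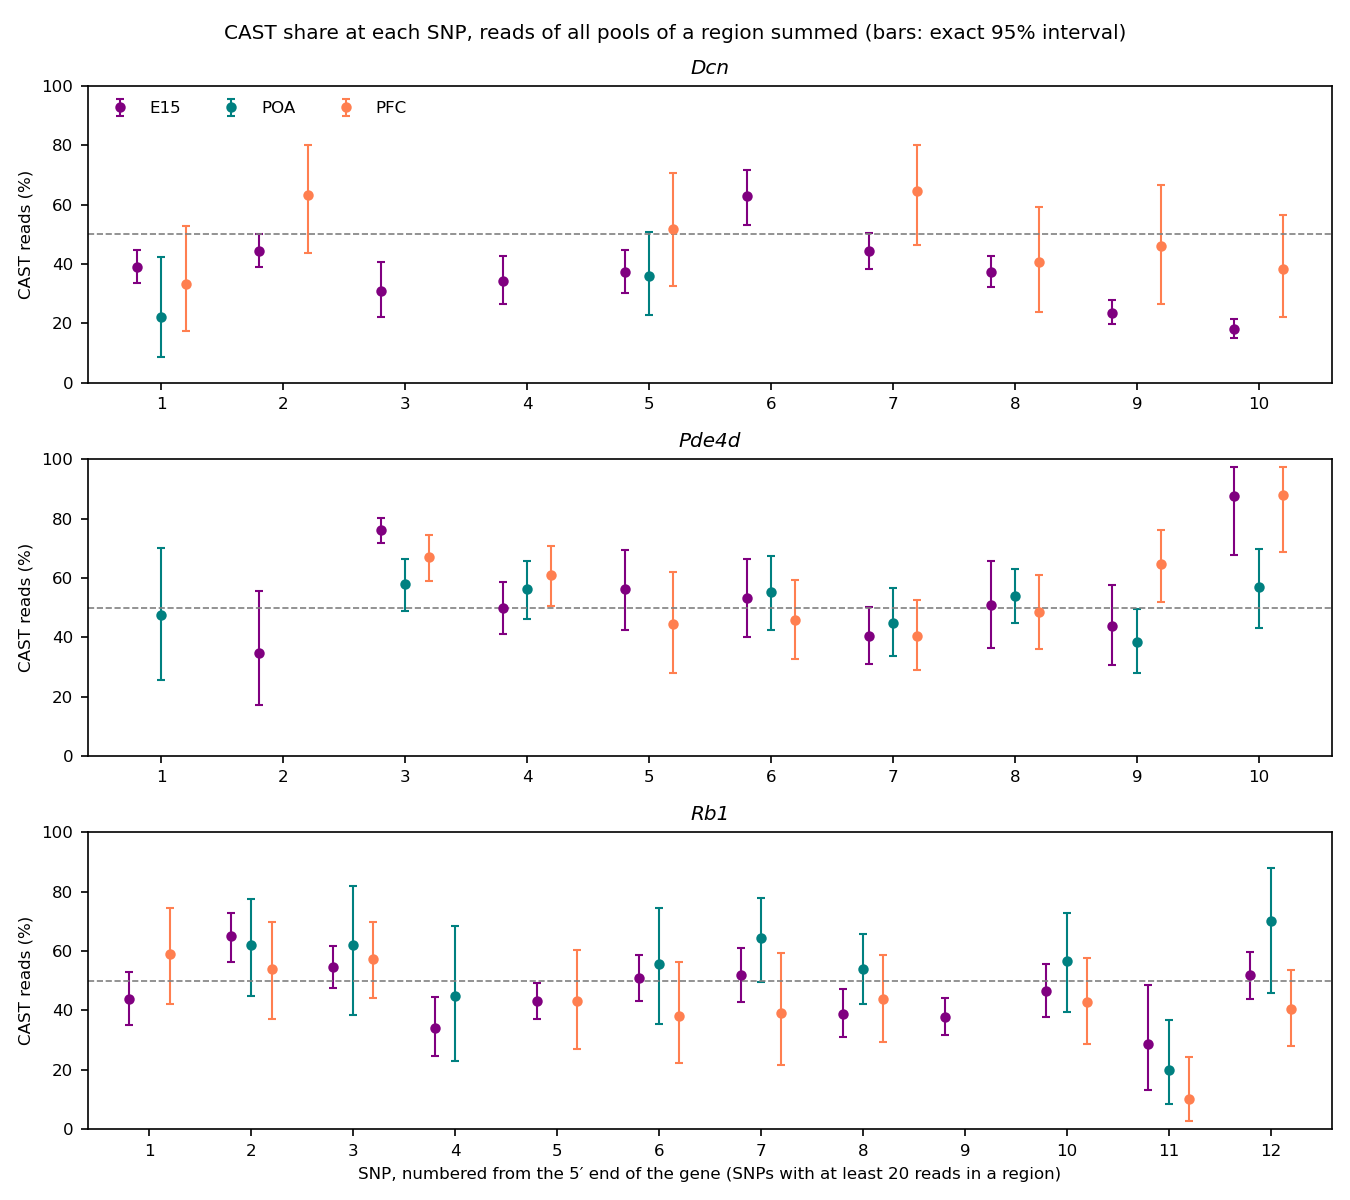
CAST reads as a percent (vertical axis) at each SNP with at least 20 reads, numbered from the 5′ end of the gene (horizontal axis), in panels for Dcn, Pde4d and Rb1, with reads of all pools of a region summed, colours for regions and exact 95% intervals as bars. The first Pde4d SNPs include the base at 76.1% in the embryo, and the last embryonic Dcn SNPs fall to 18.0%.

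Reads at SNPs within a gene but outside annotated exons, called intronic here, can come from unspliced RNA. They were counted from the genome alignments. Maternal shares here sum both crosses, so a strain lean enters them where depth differs between the crosses. Pde4d, the longest of the 5 genes, had 58 intronic SNPs with 821 reads in the embryo, 56.2% CAST (52.7% to 59.6%) and 52.3% maternal (48.8% to 55.7%). Its introns were 56.0% CAST in the POA (84 reads, 44.7% to 66.8%) and 73.5% in the PFC (113 reads, 64.3% to 81.3%). Gab1 had 8 with 75 reads in the embryo, 42.7% maternal (31.3% to 54.6%) and 62.7% CAST (50.7% to 73.6%), beside 45.0% CAST in its exons (42.3% to 47.7%). Rb1 had 11 with 66 embryonic reads, of which 81.8% were CAST (70.4% to 90.2%) and 48.5% maternal (36.0% to 61.1%). By pool, the embryonic Rb1 introns were 23.8% and 91.7% maternal. Rb1 introns in the PFC had 3 SNPs and 41 reads, 90.2% CAST (76.9% to 97.3%), whereas its exons there were 38.9% CAST (33.8% to 44.2%). The introns of Rb1, and of Gab1 in the embryo, thus leaned to the other strain than the exons, on few reads. Whether misplaced reads or SNP calls had a part in this was not tested. Ampd3 and Dcn had no intronic SNP listed.

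Embryonic brain of the inbred strains gave a second measure of the strain difference, in which the alleles sit in different animals. Each strain had 1 pool, so no test was made, and intervals cover counting error. Dcn differed little between the strains, with a log2 CAST to B6 ratio of -0.20 (-0.43 to 0.02), but its alleles in the F1 stood at -1.32 in F1i and -0.94 in F1r. The mean of the F1 alleles was lower than the strain ratio by -0.93 (-1.18 to -0.67). For Pde4d the strains stood at 0.51 (0.22 to 0.81) and the F1 alleles at 0.90 and 0.49. Without the deepest SNP these became -0.05 for the strains and 0.03 and 0.00 for the alleles. Rb1 was higher in the CAST strain, at 0.35 (0.13 to 0.56), while its alleles were at -0.19 in both crosses, a difference of -0.53 (-0.79 to -0.28). Gab1 and Ampd3 differed by -0.04 (-0.32 to 0.25) and -0.07 (-0.56 to 0.43) between F1 alleles and strains. At least 97.5% of the reads in each strain library carried that strain's own base, for each of the 5 genes. These strain reads were listed with the SNP calls themselves, so a high share can be set by how the SNPs were picked. It does not bear on whether a call was right.

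**Figure D4:**
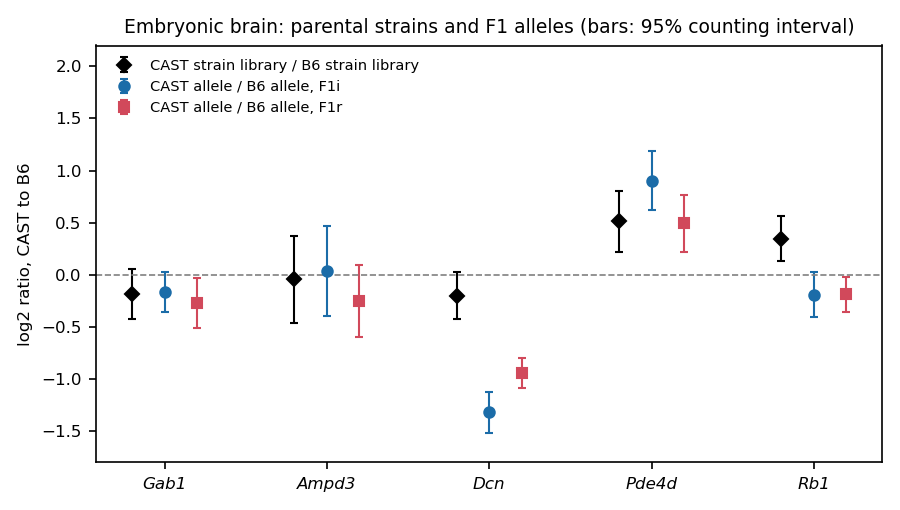
The log2 CAST to B6 ratio (vertical axis) for each gene in embryonic brain, between the inbred strains and between the alleles of each F1 cross, with 95% counting intervals as bars. For Dcn the F1 alleles lie at -1.32 and -0.94, well below the strains at -0.20, and for Rb1 the strains lie above the F1 alleles.

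Levels were compared on SNPs listed in all 3 tables, as CPM of informative reads, scaled by TMM. In bulk tissue fewer cells of a type and less RNA per cell cannot be told apart. Dcn was highest in the embryo, at 51.5 ± 23.1 CPM (SD, n = 2), against 5.31 ± 1.01 in the POA and 7.0 ± 1.74 in the PFC (SD, n = 4 each). The embryo exceeded the adults by 3.05 ± 0.185 SE on the log2 scale (edgeR, adjusted p = 5.01e-09). The embryonic Dcn pools were 35.2 and 67.9 CPM. Summed fibroblast and meningeal markers were at 584 and 729 in the F1i and F1r embryo pools, with 8 of 8 listed. They were at 82.2 to 186 in the adult pools, where 7 were listed in the POA and 6 in the PFC. Pdgfra, the largest part of the adult sums, was 105 to 152 in the embryo, 115 to 148 in the POA and 64.4 to 78.9 in the PFC. The other listed markers were lower in both adult regions than in the embryo. The part of these markers in the Dcn difference was not tested. Dcn did not differ beyond the test between POA and PFC (-0.40 ± 0.223 SE, adjusted p = 0.14).

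Rb1 was also higher in the embryo, at 67.4 ± 24.6 against 15.6 ± 1.96 in the POA and 22.7 ± 8.17 in the PFC (1.82 ± 0.196 SE on the log2 scale, edgeR adjusted p = 1.54e-06). Its lower level in the POA than in the PFC passed narrowly (-0.50 ± 0.186 SE, edgeR adjusted p = 0.036) and no longer passed without the male F1r pool of the PFC (-0.31, adjusted p = 0.13). Leaving out 4 of the other pools, 1 at a time, ended that call as well, with adjusted p between 0.083 and 0.12, as did scaling by library size alone (-0.27, adjusted p = 0.22). Gab1 stood at 52.9 ± 17.0 in the embryo, 43.6 ± 2.55 in the POA and 18.8 ± 1.29 in the PFC. The embryo exceeded the adults by 0.86 ± 0.149 SE on the log2 scale (edgeR adjusted p = 0.000137). Embryonic Gab1 pools, at 40.9 and 64.9, overlapped those of the POA, at 41.9 to 47.3. Its POA and PFC pools did not overlap (1.23 ± 0.129 SE on the log2 scale, edgeR adjusted p = 5.32e-06), but on the deepest SNP of each gene alone the direction turned, at -0.36 with an adjusted p of 0.31. Ampd3 went the other way, at 14.5 ± 6.38 in the embryo, 51.8 ± 3.90 in the POA and 21.4 ± 3.28 in the PFC. The embryo was at -1.21 ± 0.226 SE against the adults (edgeR adjusted p = 0.000285). Embryonic Ampd3 pools, at 10.0 and 19.1, overlapped those of the PFC, at 17.8 to 24.3. Its POA level exceeded that of the PFC by 1.28 ± 0.130 SE on the log2 scale (edgeR adjusted p = 4.07e-06), with no overlap of pools. Pde4d was at 35.5 ± 3.49, 29.7 ± 4.28 and 26.1 ± 6.78 in the same order, and passed neither test (0.35 and 0.19, adjusted p = 0.14 and 0.37). Between embryo and adults 4 of 5 members were called and 63.4% of all genes, and between POA and PFC 3 of 5 and 55.7%.

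**Figure D5:**
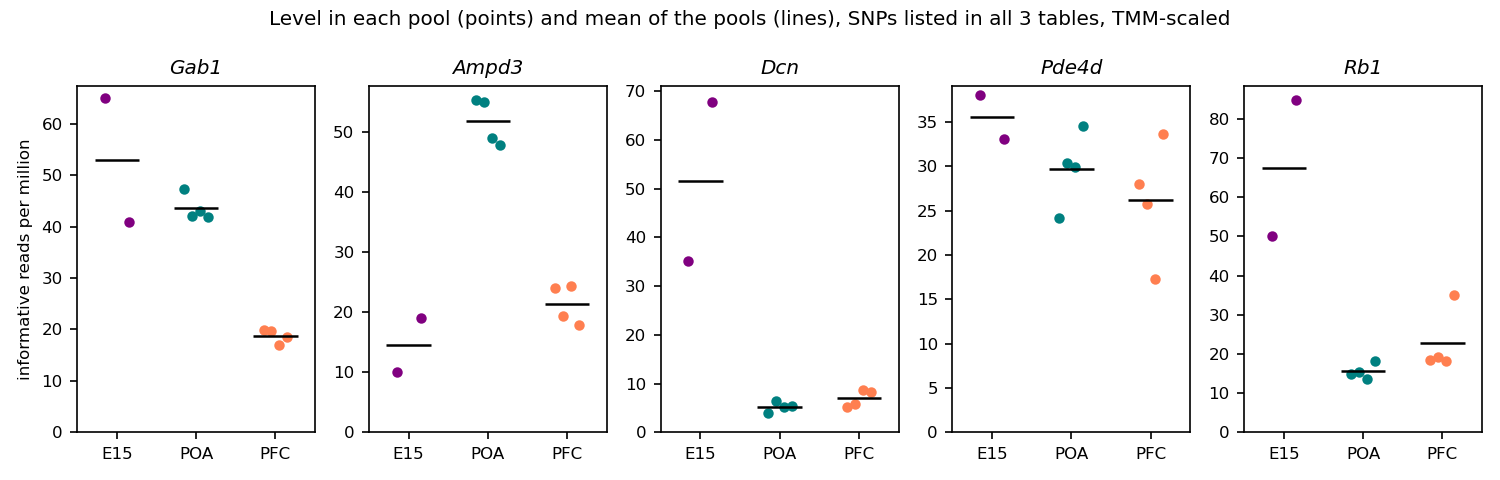
TMM-scaled CPM of informative reads (vertical axis), by region (horizontal axis), with a point per pool and lines for the mean, in a panel per gene. Dcn and Rb1 are highest in the embryo, Ampd3 is highest in the POA, and Pde4d stays between 17.3 and 38.0 in every pool.

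Other genes of the same pathways were looked at for a parental bias. Of 12 genes of GAB and receptor tyrosine kinase signalling tested in the embryo, 0 were called, and 0 of 7 over all adults. Of the cyclic AMP phosphodiesterases, 0 of 13 were called in the embryo and 1 of 11 in adults, Pde2a, an enzyme activated by cyclic GMP, which was 45.8% ± 3.86 maternal (SD, n = 8). Of genes of AMP and IMP metabolism 0 of 11 were called in the embryo and 0 of 10 in adults, and of pocket proteins, E2F factors and their partners 0 of 17 and 0 of 10. Among small leucine-rich proteoglycans and fibrillar collagens 1 of 9 was called in the embryo, Col3a1, at 53.4% ± 0.992 maternal (SD, n = 2), and 0 of 4 in adults. The median maternal shares of these lists lay between 49.2% and 50.4% in both stages, beside 50.3% for all genes in the embryo and 49.7% in adults.

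A strain bias was called for 0 to 2 genes of each of the same lists in the embryo, beside 11.5% of all genes, and for 2 to 7 in adults, beside 42.1%. In the proteoglycan and collagen list 1 of 9 genes leaned to B6 in the embryo and 2 of 4 in adults, among them Prelp, a proteoglycan of the decorin family, at 36.3% ± 1.84 CAST (SD, n = 2) and 36.4% ± 9.46 (SD, n = 8). In the signalling list Crk, an adaptor that binds phosphorylated docking proteins, leaned to CAST in both stages, at 60.0% ± 0.490 (SD, n = 2) and 57.8% ± 3.59 (SD, n = 8). Of the pocket protein list 2 of 17 were called in the embryo, both to B6, and 4 of 10 in adults, among them Tfdp1, a partner of E2F factors, at 41.4% ± 4.24 CAST (SD, n = 8). In the metabolism list Adsl, which makes AMP, was at 39.7% ± 0.374 CAST in the embryo (SD, n = 2) and 41.8% ± 5.00 in adults (SD, n = 8). Of the other phosphodiesterases none was called in the embryo, where Pde4d was called, and 2 leaned to CAST and 2 to B6 in adults.

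Among 28 further genes reported as imprinted in the placenta or in other tissues, 18 could be tested in the embryo and 14 over all adults. In the embryo 4 were called maternal and 1 paternal. Calcr, the calcitonin receptor, was 96.4% ± 1.68 maternal, Igf2r, the receptor that clears IGF2, was 65.3% ± 5.55 maternal, and Slc38a4, an amino acid transporter, was 13.3% ± 1.59 maternal (SD, n = 2 each). In the POA 2 of 16 were called, Calcr at 98.1% ± 1.0 maternal and Ppp1r9a, a synaptic actin-binding protein, at 59.5% ± 5.85 (SD, n = 4 each), and in the PFC 0 of 14, where Ppp1r9a was 50.7% ± 0.904 maternal (SD, n = 4) and Calcr was not listed. The difference of Ppp1r9a between POA and PFC passed the test (log2 0.52 ± 0.067 SE, edgeR adjusted p = 2.36e-05). Over all adults, where Calcr could not be tested, 1 of 14 was called, Ppp1r9a, at 55.1% ± 6.10 maternal (SD, n = 8). Most tested genes of this list, like Gab1, Ampd3 and Dcn, thus had no parental bias called in these brains. The share of the list that was called was still above that of all genes in the embryo (4.86%), the POA (1.16%) and all adults (0.709%). In the PFC, with 0 of 14 called, the share of all genes was 0.444%. The median maternal share of the list was 51.8% in the embryo and 50.6% in adults.

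The nearest measured genes on either side, where a gene was listed within 500 kb and could be tested, gave no parental call. Adm beside Ampd3 and Depdc1b beside Pde4d could be tested neither in the embryo nor in adults. Usp38, beside Gab1, was 49.4% ± 0.567 maternal in the embryo (SD, n = 2) and 49.0% ± 5.11 in adults (SD, n = 8). Lum, which encodes lumican and lies 47358 bases from Dcn, was 30.1% ± 22.4 maternal in the embryo (SD, n = 2), with an adjusted p of 0.36 by Fisher's exact test. Its level was low, at 0.611 and 3.11 CPM in the embryonic pools, so this share rests on few reads. Lum could not be tested in adults. In the embryo a strain call was made for Smarca5 beside Gab1, with every read from the CAST allele in both crosses. Smarca5 could not be tested in adults, and whether SNP calls or misplaced reads had a part in its share was not tested. In adults, a strain call was made for Rnf141 beside Ampd3, at 57.1% ± 5.87 CAST, for Rab3c beside Pde4d, at 40.1% ± 4.12, and for Rcbtb2, which overlaps Rb1, at 39.9% ± 7.05 (SD, n = 8 each). Since the libraries held no strand information, reads of Rcbtb2 and Rb1 cannot be told apart where their exons overlap.

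By level over the 10 pools, the genes most like each member were found among 10020 autosomal genes by Pearson's r of log2 CPM, as a description over pools that share region and depth. For Dcn they were Zfp157, Colec12 and Mllt3 (r 0.99), and for Rb1 2610206B13Rik, Gdap1 and Syncrip (0.98 to 0.99). For Gab1 they were Spata13, its alternative entry mFLJ00298, and Trp53bp1 (0.99), and for Ampd3 Ip6k1, its older name Ihpk1, and Tmem106c (0.98). Pde4d, whose level changed least between regions, had the lowest values, with Ttbk2, AK047946 and BC057381 at 0.90 to 0.95.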

How the data were processed

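Allele-specific RNA-seq of 10 F1 brain pools and of embryonic parental libraries was used, from a series of 32 samples. The members and gene lists were chosen with earlier results of these data known. The aligner was Novoalign and the genome mm9, per the submitters' processing notes. The deposited tables hold raw counts of reads with the CAST and with the B6 base at each SNP, summed by the authors over technical replicates. Each listed SNP had at least 1 read in each pool of its region, so a gene at 0 in any pool is not listed there, nor is a gene without a usable SNP. A read that spans SNPs within 36 bases of each other is counted at each.

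For each gene the best-covered transcript was taken and its SNPs were summed. Allele tests used autosomal genes averaging 20 or more informative reads a pool. Embryonic parental bias was tested with a two-sided Fisher's exact test, adding 0.5 to each cell for the log2 value. This test takes counting as the only error. All other tests used edgeR 4.0.16, quasi-likelihood, in R 4.3.3. Allele tests within an adult region had a term per pool, allele, and allele by cross. The embryonic strain test had a term per pool and allele only, which left a single residual degree of freedom. Fits over both adult regions added allele by region, and the sex test also allele by sex. Fits of embryo against adults had a term per pool, allele by region, and allele by cross by stage. Levels of POA against PFC had terms for cross and sex. Log2 values are those of the maternal to paternal, or CAST to B6, ratio. A bias was called at a Benjamini-Hochberg adjusted p under 0.05 with shares above 50% in both crosses or below it in both. Levels used TMM and filterByExpr, on SNPs in all 3 tables. Positions and annotation came from NCBIM37 (mm9) and GENCODE vM1. The fits were tested on simulated data. Alternatives included DESeq2 1.42.0, other SNP choices, read minimums and each pool left out. Named genes were the members, up to 3 called genes of each list with the smallest adjusted p, the nearest measured genes, and the 3 genes most like each member. The functional RNA tables and the adult parental values, which cannot be tied to a region, were not used here. Peg13 and Meg3 were matched by older names or accessions.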

Additional observations from a re-analysis of the deposited data

Results flagged for a closer look

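The lowest and highest pools of each adult region were compared with the others for the members' CAST shares, maternal shares and levels, in 30 groups of 4 pools, of which chance would single out about 1 in 20. In the POA, Gab1 was 58.3% CAST in the male F1r pool, apart from the other pools at 51.5% to 52.3%. Its gap to the nearest pool took up 0.872 of the range. Rb1 stood at 30.2 CPM of informative reads in the male F1r pool of the PFC, on the SNPs of the PFC table alone, against 16.0 to 16.8 in the other PFC pools, a gap of 0.945 of the range. In that pool the summed oligodendrocyte markers were lowest of the PFC pools, at 1103 against 1392 to 3525 CPM, and the summed neuron markers highest, at 4136 against 3141 to 3332. Whether cell makeup had a part in the Rb1 level was not tested.

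Dcn differed between embryo and adults in strain bias, by -0.76 on the log2 scale (edgeR, adjusted p = 0.0144).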

How the results depend on the processing

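No paired analysis was possible because the replicate numbers in the labels mark technical replicates, which the authors summed within each pool. With a block for cross and sex, chosen after seeing the data, POA against PFC kept every member call, with 44 genes called for parental bias, 1277 for strain bias and 6603 for level (36, 1349 and 6468 without it).

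Under the alternatives, 534 of 534 parental values of the members kept their call status, none being called. Of the 1144 member values in all, 1101 kept direction and call, 31 lost a call, 10 gained one and 2 reversed, and of the 965 uncalled ones 80 changed sign. The reversals were Gab1 between POA and PFC levels on the deepest SNP alone (-0.36) and Pde4d in embryonic strain bias without its deepest SNP (-0.078).

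Embryonic strain calls among the members, 2 in the main test, fell to 1 with DESeq2, with SNPs at least 36 bases apart, with a mean of at least 50 reads and without the deepest SNP, and to 0 with the SNPs of all 3 tables, with X-linked genes included and with no read minimum. For the PFC, 1 became 0 with DESeq2, with X-linked genes and without the deepest SNP, and was 0 to 1 with a pool left out. Pde4d lost its call without any 1 of the 4 PFC pools (adjusted p 0.067 to 0.16), and with SNPs at least 36 bases apart it lost it (adjusted p = 0.068) while Rb1 gained one (adjusted p = 0.045). Over all adults, 1 became 0 with DESeq2 and without the deepest SNP, 2 with alleles scaled separately, where Gab1 joined (0.26, adjusted p = 0.019), and 0 to 1 with a pool left out, being lost without the male F1r pool of the PFC (adjusted p = 0.050). For strain bias of embryo against adults, 1 became 0 with DESeq2, shared SNPs, X-linked genes and without the deepest SNP, and 3 on the deepest SNP. On that SNP, 1 member was called for strain bias of POA against PFC, where the main test called 0, and 1 for the level, where it called 3. The strain ratios moved on it to 0.46 for Ampd3, -0.49 for Dcn and 1.65 for Pde4d, and to -0.047 for Pde4d without it. The cause was not tested.

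Counts over all genes moved by over 1.5 times in several tests. Embryonic parental calls fell from 690 to 104 with edgeR's spread over all 10 pools. Other parental calls fell with X-linked genes included, from 49 to 32 in the PFC, 133 to 47 in the POA, 80 to 47 in all adults, 45 to 8 for embryo against adults and 36 to 3 for POA against PFC. On the deepest SNP the last 2 rose to 125 and 62, and with X-linked genes the sex test went from 0 to 329. With a pool left out, the parental POA count ran from 60 to 159 (60, 63 and 67 without the F1i female, F1i male and F1r female pools), the parental region contrast from 16 to 92 (92 without the male F1r POA pool, 16 to 22 without any other pool but the male F1i of the PFC), the sex test from 0 to 21, strain calls in the POA from 1636 to 2610 and those of POA against PFC from 775 to 1220. Embryonic strain calls ran from 0 with X-linked genes to 3406 over 10 pools, against 1636. With DESeq2 strain calls fell from 3927 to 1678 in the PFC, 3251 to 669 in the POA, 1200 to 129 for embryo against adults and 1349 to 240 for POA against PFC, and on the deepest SNP from 4751 to 2718 in all adults. Depth limits Dcn most, with 23 to 71 reads in each adult pool.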
